A study of Mus musculus with 6 samples.

Results

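The renin-angiotensin system genes were described in the RNA of CD4+ and CD8+ cells that had been sorted from mouse spleens. The 9 genes are Agtr1a, Agtr1b, Agtr2, Agtrap, Ace, Agt, Lnpep, Atp6ap2 and Enpep, and their rows were found by gene name in a table of 17832 genes. Of the 9, 5 had a row (Agtr1a, Agtrap, Atp6ap2, Ace and Lnpep). Agtr1b, Agtr2, Agt and Enpep had none, so their levels were not analysed here; the lowest total of any row was 11 reads over the 6 libraries. All mice were C57BL/6 and all received angiotensin II from osmotic pumps under the skin, so the 6 libraries share the treatment and no comparison addresses its effect. The CD4 group has 3 libraries, numbered 385, 393 and 395, and the CD8 group has 3, numbered 389, 395 and 387. The sources used here give neither the dose and duration nor the age and sex of the mice, and name no sort marker other than CD4 and CD8. The labels do not say whether a number marks a mouse, so p-values measure only the spread between libraries.

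In this system the protease renin cuts angiotensinogen, the product of Agt, to angiotensin I, and the dipeptidyl carboxypeptidase encoded by Ace converts it to angiotensin II. Angiotensin II acts through the type 1 receptor, which rodents carry as the genes Agtr1a and Agtr1b, and through the type 2 receptor of Agtr2. Enpep and Lnpep are aminopeptidases that trim or bind angiotensin peptides. Agtrap binds the type 1 receptor and lowers its surface level, and Atp6ap2 is the prorenin receptor and a part of the vacuolar proton pump. T cells are known to take part in the blood pressure response to angiotensin II in mice, and a type 1 receptor on T cells has been studied in that setting.

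The receptor pair Agtr1a and Agtr1b was compared as sequence, because 1 had a row and the other had none and reads from copies this close can be hard to place. In GENCODE M21 transcripts (GRCm38), the open reading frames of Agtr1a, on chromosome 13, and Agtr1b, on chromosome 3, have 1080 bases each and are identical at 981 positions, or 90.8%. The longest run without a difference has 66 bases, from position 75 to 140 of the frame. It is shown from position 60 to 155, 5′ to 3′, with the bases that differ between the genes in capitals.
Agtr1a: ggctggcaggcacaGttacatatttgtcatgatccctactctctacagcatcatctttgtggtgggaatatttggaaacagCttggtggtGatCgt
Agtr1b: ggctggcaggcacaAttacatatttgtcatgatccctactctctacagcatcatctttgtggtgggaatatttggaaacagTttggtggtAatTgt
Of the 2922 distinct stretches of 50 bases in the Agtr1a transcripts, 33 also occur in Agtr1b, and 37 (1.27%) occur in any other gene. The sources used here do not state the read length, so how many reads this could misplace was not measured.

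The sequence before the transcription start is shown for Lnpep, the member with the most reads, and for Agtr2, which had no row. The pair was picked with its CG counts in view, so it stands as an example of the range and not of a split between measured and unmeasured members. RefSeq windows of the 250 bases before the start (GRCm38.p6) were available for 8 members, all but the measured Agtr1a. The dinucleotide CG was counted in them. The window of Lnpep (chr17:17624490-17624739, minus strand) holds 25 CG and that of Agtr2 (chrX:21484374-21484623, plus strand) holds 3. Both are printed 5′ to 3′ on the gene's strand with each CG in capitals.
Lnpep: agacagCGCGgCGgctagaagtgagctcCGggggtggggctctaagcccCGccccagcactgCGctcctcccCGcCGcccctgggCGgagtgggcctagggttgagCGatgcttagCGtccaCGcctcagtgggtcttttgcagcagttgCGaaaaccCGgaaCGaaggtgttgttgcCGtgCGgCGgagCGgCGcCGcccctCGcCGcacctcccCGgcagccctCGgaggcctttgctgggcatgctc
Agtr2: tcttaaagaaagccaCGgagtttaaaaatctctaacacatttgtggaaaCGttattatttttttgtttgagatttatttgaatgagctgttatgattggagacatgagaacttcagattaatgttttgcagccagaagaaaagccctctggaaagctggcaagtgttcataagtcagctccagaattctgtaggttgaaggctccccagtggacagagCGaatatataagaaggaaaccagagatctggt
Among the other measured members, Atp6ap2 has 20 CG and Agtrap 12, and Ace has 19 at its first annotated start and 1 at its second, internal start. Among the members without a row, Enpep has 6, Agtr1b 5 and Agt 0. The median was 14 over 14814 windows of genes with a row and 3 over 18037 windows of genes without one. The motif TATAAA, searched as an exact match on both strands, is in the windows of Agtr1b, Agt, Enpep and the first start of Ace. It is in 12.4% of all 32851 windows, 7.07% of those of genes with a row and 16.7% of those without. Near matches, in Agtr2 or elsewhere, were not counted. The gene-level values do not tell which Ace start was used.

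Each library carried the coreceptor transcript of its label: Cd4 was at 4065 to 6313 normalised reads in the CD4 and 38.9 to 163 in the CD8 libraries, and Cd8a at 7.45 to 36.8 and 3871 to 10001. They also held RNA of other spleen cells. The 14 T cell markers summed to 28392 to 54817 in CD4 and 12688 to 41894 in CD8, beside 42840 to 94416 and 70257 to 131041 for the 14 erythroid markers. The 11 B cell markers summed to 80607 to 106577 in CD4 and 63224 to 120551 in CD8, most of it Ighm (62053 to 117988). CD8 389 had the lowest T cell sum and the highest erythroid sum. In such bulk libraries, fewer cells of a type and less RNA per cell cannot be told apart. Recovered reads ran from 10264246 to 14628599 per library.

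None of the 5 measured members passed the test between CD8 and CD4 libraries. Each log2 fold change is the CD8 mean less the CD4 mean of log2(value + 1), a scale that makes changes in low genes look smaller. It was fitted with limma over 13877 genes, those that reached a value of 10 in 3 libraries. A gene was called at a Benjamini-Hochberg adjusted p under 0.05, two-sided. Of all genes tested, 68 (0.49%) were called, 39 higher in CD8 and 29 higher in CD4; after rescaling each library to its T cell markers the split was 96 and 17. Of the 5 members, limma called 0, 0 had an unadjusted p under 0.05 (5.82% of all genes tested had), and edgeR and DESeq2 called 0, where edgeR called 0.425% of all genes and DESeq2 2.3% of those with an adjusted p. The value ranges of the CD4 and CD8 groups overlapped for all 5, whereas they were apart for 10.2% of the genes tested. The members' median log2 fold change was 0.02, beside 0.04 over all genes tested.

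**Figure D1:**
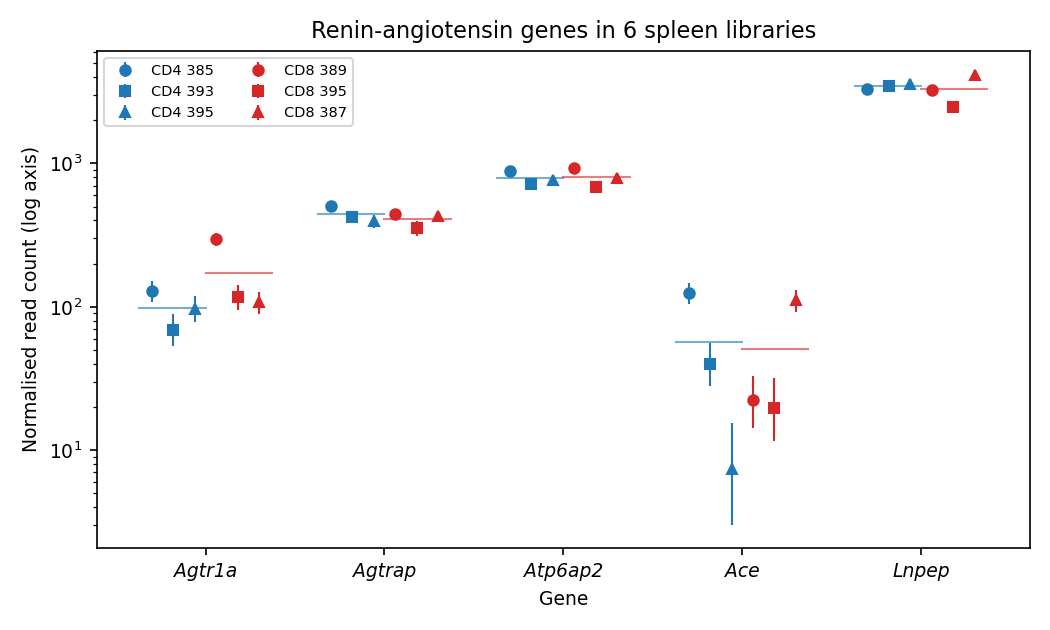
Normalised read count (log axis) of the 5 measured members in each library, blue for CD4 and red for CD8, with the exact Poisson 95% interval of the counts as error bars (counting error only) and the group mean as a line. Lnpep, Atp6ap2 and Agtrap stay within a factor of 1.68 over the 6 libraries, while Ace spans 16.7-fold.

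Agtr1a, which encodes the main type 1 angiotensin receptor of the mouse, was measured in every library at a modest level. Its normalised read counts were 128, 69.1 and 96.8 in CD4 385, 393 and 395 and 295, 117 and 107 in CD8 389, 395 and 387, from 62 to 319 reads per library. CD8 389 was above every other library, and the other 2 CD8 libraries lay inside the CD4 range. The means were 98.1 ± 29.7 (SD, n = 3) in CD4 and 173 ± 106 in CD8. The log2 fold change was 0.70 (SE 0.44, 95% interval -0.32 to 1.71), with a limma adjusted p of 0.946, and it was 0.24 without CD8 389. A CD8 level between 0.803 and 3.28 times the CD4 level is thus within the interval. The exact Poisson 95% interval of CD8 389 was 264 to 329 and those of the other 5 libraries lay between 53.0 and 151, so counting error is smaller than the difference of that library from the rest.

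The libraries ranked by Agtr1a in nearly the order of the erythroid marker sum. The 14 erythroid markers, all present in every library and led by Car2, summed to 131041 in CD8 389, 94416 in CD4 385, 71069 in CD8 387, 70257 in CD8 395, 67951 in CD4 395 and 42840 in CD4 393. Agtr1a was highest in CD8 389, next in CD4 385 and lowest in CD4 393, and only the neighbours CD8 395 and CD8 387 change places between these orders. The T cell marker sum, with all 14 markers present, stood in the exact reverse of the erythroid order, from 12688 in CD8 389 to 54817 in CD4 393. Agtr1a thus ran against the T cell sum as closely as it ran with the erythroid sum. Of 8 mast cell and basophil markers, led by Kit, 7 had a row. Their sum was also highest in CD8 389 (3268), next in CD4 385 (3051) and lowest in CD4 393 (1880). Fcer1a and Cma1 among them were at 0 reads in at least 1 library. Most of the sum was Kit, at 1420 in CD4 393 to 2519 in CD8 389. Cpa3, Mcpt8, Ms4a2 and Gata2 did not keep the Agtr1a order. They were highest in CD4 385 and lowest in CD4 395, with Mcpt8 at 269 and 4.26 there. Fcer1a and Cma1 were also highest in CD4 385. The part of erythroid, mast cell, basophil or T cell content in the Agtr1a values was not tested.

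By the likeness rule (the root mean square difference between log2 values centred on each gene's mean over the 6 libraries, among 11048 genes with a mean of 50 or more), the 3 genes nearest to Agtr1a were Kif15, Fam83d and Cenpk. Their differences were 0.13 log2 units each, where Agtr1a itself spread by 0.63 about its mean. Kif15 encodes a kinesin of the mitotic spindle, Fam83d a spindle protein and Cenpk a protein of the kinetochore. Kif15 had 1477, 782 and 1122 normalised reads in CD4 385, 393 and 395 and 2655, 1171 and 1174 in CD8 389, 395 and 387. Like Agtr1a, it was highest in CD8 389 and lowest in CD4 393. The match describes these 6 libraries, which also differ in cell makeup and depth, and the part of either in the match was not tested.

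**Figure D2:**
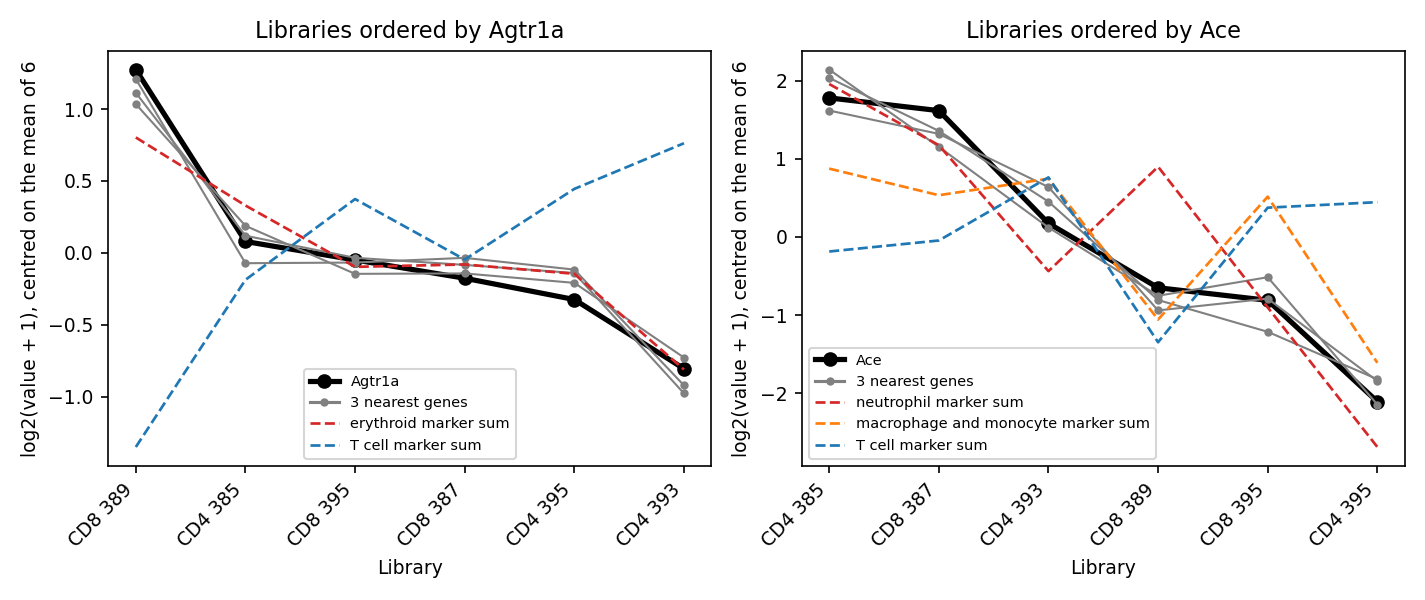
log2(value + 1), centred on the mean of the 6 libraries, with libraries ordered by Agtr1a (left) or Ace (right). Black is the member, grey its 3 nearest genes, and dashed lines are summed markers. Agtr1a falls from CD8 389 to CD4 393, where the erythroid sum is lower and the T cell sum higher. Ace falls from CD4 385 to CD4 395.

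Agtrap, whose product binds the type 1 receptor and promotes its internalisation, was nearly level. It had 501, 425 and 396 normalised reads in CD4 385, 393 and 395 and 443, 352 and 430 in CD8 389, 395 and 387. The highest was 1.42 times the lowest, and the groups overlapped throughout. The means were 440 ± 54.2 (SD, n = 3) in CD4 and 409 ± 49.3 in CD8, a log2 fold change of -0.11 (SE 0.18, 95% interval -0.52 to 0.31, limma adjusted p = 0.951). Its nearest genes were Gpr107, Ubn1 and Nbr1, at 0.03 to 0.04 log2 units. In the 4184 distinct stretches of 50 bases of its transcripts, 12 occur in another gene.

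Atp6ap2, the prorenin receptor and an accessory protein of the proton pump that acidifies lysosomes, was likewise level. It had 883, 724 and 768 normalised reads in CD4 385, 393 and 395 and 934, 690 and 789 in CD8 389, 395 and 387. The means were 792 ± 81.7 (SD, n = 3) in CD4 and 804 ± 122 in CD8, a log2 fold change of 0.02 (SE 0.17, 95% interval -0.38 to 0.41, limma adjusted p = 0.988). CD8 389 and CD4 385 were the highest libraries of their groups, as they were for Agtr1a and Agtrap. Its nearest genes were Rbsn, Nampt and Pdxdc1, at 0.03 to 0.04 log2 units. Of its stretches of 50 bases, 2.53% are shared with the gene model Gm36448, for which misplaced reads were not measured.

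Ace, the enzyme that forms angiotensin II, was the lowest and the most variable measured member. It had 124, 40.1 and 7.45 normalised reads in CD4 385, 393 and 395 and 22.2, 19.8 and 111 in CD8 389, 395 and 387, from 7 to 145 reads per library. CD4 385 and CD8 387 were far above the rest, 1 library in each group, and CD4 395 was lowest. The Poisson 95% interval was 2.99 to 15.3 in CD4 395 and 105 to 146 in CD4 385. The SD over libraries on the log2 scale was 1.51, above that of 97.9% of the genes tested, whereas Agtr1a was above 83.7%, Lnpep 35.1%, Agtrap 17.5% and Atp6ap2 16.8%. The means were 57.2 ± 60.2 (SD, n = 3) in CD4 and 50.9 ± 51.8 in CD8. The log2 fold change was 0.10 (SE 1.04, 95% interval -2.32 to 2.53, limma adjusted p = 0.988), which spans 0.20 to 5.77 times the CD4 level. Its sign turned under several alternatives: it was -0.93 without CD4 395 and 1.02 without CD4 385. The highest estimate, 2.04, came with library weights (limma adjusted p = 0.451). An antisense gene model, Gm11651, overlaps exons of Ace in GENCODE M21, and since the sources used here do not state whether counting used the strand, reads of the pair could not be told apart.

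Markers of myeloid cells were high and low in many of the same libraries as Ace. The 12 neutrophil and granulocyte markers, all with a row and led by Mpo, summed to 13043 in CD4 385, 7575 in CD8 387, 6258 in CD8 389, 2477 in CD4 393, 1795 in CD8 395 and 519 in CD4 395. Ltf, Mmp8 and Ly6g were at 0 reads in at least 1 library. The 16 macrophage and monocyte markers, all above 0 in every library, summed to 28046, 25647 and 5005 in CD4 385, 393 and 395. In CD8 389, 395 and 387 they summed to 7347, 21868 and 22149. CD8 395 and CD8 387 were thus close in this sum, whereas Ace was at 19.8 and 111 in them. CD4 393 was also close to CD4 385, with Ace at 40.1 and 124. Of 10 markers of endothelial cells, which carry Ace in vessels, 8 had a row, and they summed to 1750 to 2516 in CD4 and 803 to 1763 in CD8. Most of that sum was Pecam1, at 501 to 1913, which leukocytes also carry. Stab2, a scavenger receptor of sinusoidal endothelium, was named after its values were seen. It was at 544, 465 and 93.6 in CD4 385, 393 and 395 and 141, 368 and 488 in CD8 389, 395 and 387. Its libraries stood in the order of Ace except that CD8 389 and CD8 395 changed places. Plvap was at 79.1 to 146, and highest in CD4 395, where Ace was lowest. Cdh5 had 0 reads in CD4 395 and at most 7.55 normalised reads elsewhere, and Emcn and Cldn5 had no row. The part of these cells in the Ace values was not tested.

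The genes nearest to Ace by the likeness rule were Mmp9, Slfn4 and Tlr8, at 0.27 to 0.28 log2 units beside a spread of 1.37 in Ace itself. Mmp9 encodes a gelatinase of neutrophils and macrophages, and Tlr8 an endosomal receptor of myeloid cells. Mmp9 had 247, 60.2 and 11.7 normalised reads in CD4 385, 393 and 395 and 32.4, 38.4 and 124 in CD8 389, 395 and 387. As with Ace, its highest libraries were CD4 385 and CD8 387 and its lowest was CD4 395.

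Lnpep, the insulin-regulated aminopeptidase that binds angiotensin IV and also trims peptides in cross-presenting endosomes, gave the most reads of the members. It had 3317, 3475 and 3568 normalised reads in CD4 385, 393 and 395 and 3278, 2466 and 4132 in CD8 389, 395 and 387. The 3 CD4 libraries lay close together, inside the wider CD8 range. The means were 3453 ± 127 (SD, n = 3) in CD4 and 3292 ± 833 in CD8, a log2 fold change of -0.10 (SE 0.20, 95% interval -0.57 to 0.37, limma adjusted p = 0.958). Without CD8 395, its lowest library, the log2 fold change was 0.09. Its nearest genes were Zfyve26, Prrc2c and Pikfyve, at 0.07 log2 units, and 0 of its 14234 stretches of 50 bases occur in another gene.

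**Figure D3:**
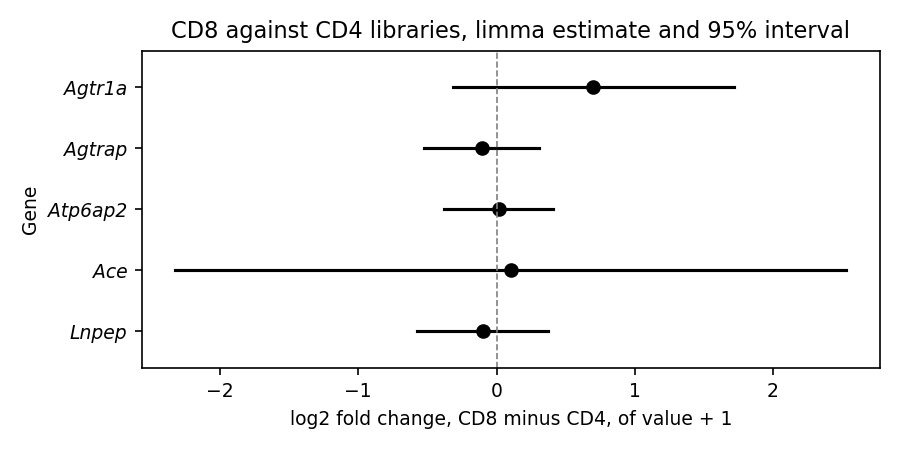
log2 fold change of each measured member, CD8 minus CD4, of value + 1, as points with the 95% interval from limma as lines. All 5 intervals include 0, and that of Ace runs from -2.32 to 2.53.

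Levels of different members were compared per kilobase of exon, with lengths from GENCODE M21 (GRCm38), which may differ from the annotation used for counting. Atp6ap2 had the highest mean over the 6 libraries, 305 normalised reads per kilobase (range 264 to 357), followed by Lnpep with 238 (174 to 292), Agtrap with 100.2 (83.1 to 118), Agtr1a with 48.7 (24.8 to 106) and Ace with 10.2 (1.41 to 23.5). The ranges of Atp6ap2 and Lnpep overlapped, although Atp6ap2 was above Lnpep within each of the 6 libraries, at 103% to 154% of it. With the longest protein-coding transcript as the length, that held in 5 of 6 libraries, and the order of the 5 means was the same. For Agtrap this length was 3996 bases, near the 4236 bases of exon. Shorter transcripts were not tried for any member, so the order under them is not known. Agtrap and Agtr1a also overlapped, since Agtr1a reached 106 in CD8 389, while Lnpep and Agtrap did not. Agtr1a and Ace were apart by a narrow margin, 24.8 against 23.5. Per kilobase, Agtr1a stood at 10.1% to 45.7% of Lnpep in the same library and Ace at 0.56% to 10.0%.

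Other genes of the pathway were read from lists of its peptidases, receptor signalling partners and related enzymes. Over the 5 lists, 78 of 94 genes had a row and 75 were tested. Of these limma called 0, edgeR called 0 and DESeq2 called 1, where 0.49%, 0.425% and 2.3% of all genes were called. An unadjusted limma p under 0.05 was found for 3 of the 75 and for 5.82% of all genes tested. None of these counts is above the share over all genes. The value ranges of the groups were apart for 3 genes with the higher values in CD8 and 2 in CD4, where 4.93% and 5.28% of all genes tested were. The median log2 fold change was 0.02, beside 0.04 over all genes tested.

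Among the other angiotensin peptidases and receptors, 11 of 19 had a row and 10 were tested. Ren1, which encodes renin, was among those without a row, as were Mas1, Mme, Mrgprd, Bdkrb1, Bdkrb2 and Klk1, and these were not analysed here. The members with the highest means were the lysosomal proteases Ctsd (log2 fold change 0.16) and Ctsa (-0.04), with limma adjusted p of 0.951 and 0.982. Ctsg, a granule protease that can form angiotensin II without Ace, was named after its values were seen. It had 573, 160 and 34.0 normalised reads in CD4 385, 393 and 395 and 496, 114 and 362 in CD8 389, 395 and 387. Its libraries stood in the order of the neutrophil sum except that CD8 389 and CD8 387 changed places. Cma1, the chymase that also forms angiotensin II, had 0 reads in CD4 395, CD8 389 and CD8 395 and at most 5.14 normalised reads elsewhere, and was not tested.

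Anpep, an aminopeptidase that removes the first residue of angiotensin III and is carried by dendritic and other myeloid cells, differed most between the groups and was named after its values were seen. It had 149, 187 and 21.3 normalised reads in CD4 385, 393 and 395 and 468, 553 and 636 in CD8 389, 395 and 387. All CD8 libraries were above all CD4 libraries. The means were 119 ± 86.9 (SD, n = 3) and 552 ± 83.9, a log2 fold change of 2.68 (SE 0.74, 95% interval 0.96 to 4.40), with a limma adjusted p of 0.316 and an unadjusted p of 0.0073. DESeq2 called it (2.20, adjusted p = 0.0149), as did limma with library weights (3.60, adjusted p = 0.0267), a setting that called 2.62% of all genes, whereas edgeR did not (2.19, adjusted p = 0.373). Over 15 alternatives its adjusted p ran from 0.0149 to 0.785. The 14 dendritic cell markers, all above 0, summed to 4542 to 13474 in CD4 and 27537 to 39703 in CD8, and 2 of them were called. Cd74 led the sum, at 2142 to 6250 in CD4 and 10542 to 17741 in CD8, followed by H2-Aa and H2-Ab1. The ranges of Zbtb46, Batf3, Cd209a and Siglech overlapped between the groups, and those of the other markers were apart. CD4 395 was lowest for both Anpep and the dendritic sum. The part of dendritic cells in the Anpep values was not tested.

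Among 30 partners of the type 1 receptor (G proteins, phospholipases, arrestins, kinases and calcium signalling genes), 28 were tested, with 0 called and a median log2 fold change of -0.11. The members with the highest means were Arhgef1, an exchange factor that the receptor activates in smooth muscle, and Gnai2, an inhibitory G protein subunit. Arhgef1 had 15495 ± 5616 (SD, n = 3) in CD4 and 10375 ± 3960 in CD8 (limma adjusted p = 0.946), and Gnai2 had 5942 ± 257 and 5747 ± 394 (0.965). Itpr2, a calcium release channel named after its values were seen, had 1126, 1611 and 1324 in the CD4 libraries and 530, 688 and 1134 in CD8 389, 395 and 387. Its log2 fold change of -0.84 (SE 0.29) had a limma adjusted p of 0.548.

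Of the 9 M1 aminopeptidases related to Lnpep and Enpep, 7 were tested, including Anpep, and 0 were called. Lta4h, which forms leukotriene B4, had 1697 ± 194 (SD, n = 3) in CD4 and 1822 ± 114 in CD8, and Erap1, which trims peptides for MHC class I, had 1479 ± 40.2 and 1582 ± 176. Among 22 subunits of the proton pump that Atp6ap2 joins, 17 were tested and 0 called, with log2 fold changes from -0.15 to 0.33 and a median of 0.10. Atp6ap1, the companion accessory subunit, had 1927 ± 322 and 2102 ± 212, and Atp6v1b2 had 1329 ± 261 and 1501 ± 163. Of 15 partners of Lnpep in storage vesicles and endosomes, 14 were tested and 0 called, with a median of 0.02. Rab14 and Rab10, small GTPases of these vesicles, had 1950.5 ± 95.1 and 1809.7 ± 199 in CD4 and 2100.2 ± 142 and 1835 ± 221 in CD8. Tbc1d4, which restrains those GTPases and was named after its values were seen, had 606 to 1210.2 in CD4 and 456 to 495 in CD8, with a limma adjusted p of 0.527.

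**Figure D4:**
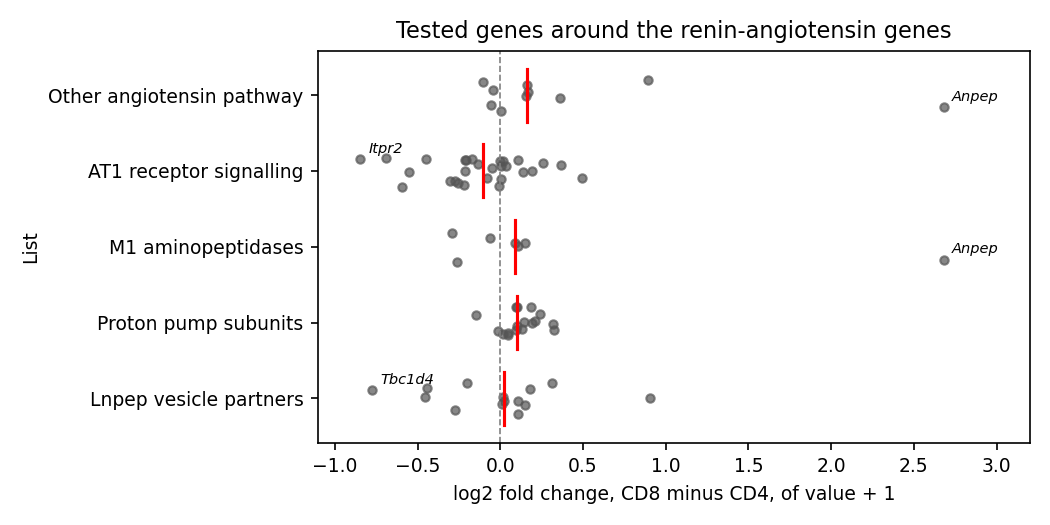
log2 fold change, CD8 minus CD4, of value + 1 for each tested gene of the 5 lists of related genes, with the list median as a red line. Every other gene lies between -1 and 1, and Anpep, which is in 2 lists, stands at 2.68.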

How the data were processed

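RNA from sorted spleen cells, 500 ng per library, was extracted with Trizol and made into stranded TruSeq mRNA libraries, per the labels' protocols. The values the authors deposited are a normalised signal: in each library, every value is a number of reads times 1 constant, the inverse of its size factor. The submitters' processing notes name STAR 2.7.5c, featureCounts 2.0, DESeq2 and GRCm39, with no roles, and the sources used here do not name the annotation. In each library 100% of values were whole multiples of 1 read (tolerance 0.001), so whole reads were recovered. A floor of 3 reads equals 2.52 to 3.49 normalised reads. No pair of libraries agreed within sampling noise (lowest chi-square per degree of freedom 25.4).

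The members and lists were chosen with earlier results of these data known. The test was limma-trend on log2(value + 1) for 13877 genes (limma 3.58.1, R 4.3.3). EdgeR 4.0.16 and DESeq2 1.42.0 on recovered reads, other pseudocounts, filters and scalings, library weights and leaving out each library were alternatives. The fits were tested on simulated data. Named genes are the 9 members, the 3 nearest genes of each and, per list, called genes or the 2 with the highest mean; others were named after their values were seen. Poisson intervals cover counting error only, and reads without molecular identifiers are not independent molecules.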

Additional observations from a re-analysis of the deposited data

How the results depend on the processing

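No measured member was called under any of the 15 alternatives run (14 for Ace, which was not tested with a minimum value of 50). The log2 fold change kept its sign for Agtr1a, from 0.20 to 1.37. Rescaling each library to its T cell markers raised the median of all genes tested from 0.04 to 0.71, and relative to that median the members ran from -0.14 to 0.66, beside -0.15 to 0.66 without rescaling. It turned Agtrap to 0.57 and Lnpep to 0.58, which are -0.14 and -0.13 relative to the median. Rescaling put Atp6ap2 at 0.70 and Ace at 0.75. Library weights gave Ace its highest estimate, 2.04, and turned Atp6ap2 to -0.0049 and Lnpep to 0.16. EdgeR and DESeq2 gave -0.17 and -0.17 for Ace. Leaving out 1 library turned the sign of Atp6ap2 (range -0.10 to 0.12), with -0.05 without CD4 393, -0.0027 without CD4 395 and -0.10 without CD8 389. It turned Ace (range -0.93 to 1.02), with -0.93 without CD4 395 and -0.68 without CD8 387. It turned Lnpep (range -0.28 to 0.093), with 0.093 without CD8 395. The cause was not tested.

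Of all genes, 104 were called with a pseudocount of 5, 42 with a minimum value of 50, 319 by DESeq2, 113 after the T cell rescaling and 363 with library weights (228 higher in CD8), against 68; leaving out 1 library gave 7 (without CD8 395) to 46 (without CD4 395, 40 of them higher in CD8), with 9 without CD8 387, 19 without CD4 393 and 40 without CD4 385 or CD8 389. Of the other pathway genes, DESeq2 called 1 and library weights 1, Anpep in both, against 0. With the longest protein-coding transcript as length, an alternative chosen after seeing the data, the mean of Atp6ap2 per kilobase was 343 and that of Lnpep 279.8. No paired analysis was possible because the CD4 and CD8 groups share only the number 395, and the random block that had been planned could not be estimated from 1 pair. Depth limits Ace most, with 7 reads in CD4 395.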
